A study of Mus musculus with 22 samples.

Results

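The genes described here encode the core and accessory subunits of Polycomb repressive complex 2 (PRC2), and their own H3K27ac peaks were examined in KL cells from BcorΔE9-10 mice. The 10 genes were chosen by name, out of 21938 protein-coding genes, as 5 core genes (Ezh1, Ezh2, Eed, Suz12 and Rbbp4) and 5 accessory genes (Jarid2, Aebp2, Mtf2, Phf1 and Phf19). Every peak that overlapped the body of such a gene, or lay within 10 kb of it, was collected from each of 3 libraries. KL cells, sorted here from bone marrow, are myeloid progenitors that lack lineage markers and Sca1 and carry cKit. The mice were males on a C57BL/6 background with the genotype scl-Cre-ERT +; Bcorfl/y, and all carried the tamoxifen-inducible Cre driven by a stem cell enhancer of Scl. They received tamoxifen at 1 mg per day for 5 days when 3 to 6 months old, which removes exons 9 and 10 of Bcor, and cells were taken 20 weeks later. The 3 libraries are labelled as replicates 1, 2 and 3 of 1 group, and per the methods of the study the cells came from 3 mice. The other 19 of the 22 samples, in 11 groups in all, were not analysed here, so no genotype was compared with another and each comparison is between genes within a library.

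PRC2 methylates lysine 27 of histone H3, a mark of silenced genes. EZH2 or its paralogue EZH1 is the catalytic subunit, SUZ12 is the scaffold, EED binds the methyl mark that the complex has made and stimulates it, and RBBP4 is a histone-binding protein that several other chromatin complexes share. The accessory subunits divide the complex into 2 forms. In PRC2.1 a Polycomb-like protein (MTF2, PHF1 or PHF19) joins the core and contacts unmethylated CpG DNA, and in PRC2.2 JARID2 and AEBP2 join it and can recognise ubiquitinated H2A. Acetylation of the same lysine, H3K27ac, marks active promoters and enhancers and cannot be on a histone tail that carries the methyl mark, so a peak at one of these genes describes how the gene that encodes the subunit is marked, not where PRC2 acts. In a bulk sample, a mark in fewer cells and less of the mark per cell cannot be told apart.

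The promoter sequences below, 250 bases before to 50 bases after a transcription start site (TSS), are from RefSeq on GRCm38.p6 and run 5′ to 3′ on the strand of the gene. All 10 genes were matched in that table, which held 14 windows for them. For each gene the window nearest its most upstream GENCODE start was used. Its RefSeq start lay further into the gene by 311 bp at Ezh2 and 1300 bp at Jarid2. The shift was 75 bp at Phf1, 50 bp at Phf19, 7 bp at Eed and 0 bp at the others. Motif positions are counted from the RefSeq start and peak positions from the GENCODE start. The genes shown are the pair of alternative catalytic subunits, Ezh2 and Ezh1, and the scaffold Suz12, whose peaks lay on either side of the start. The others shown are the genes with the highest and the lowest mean peak, Mtf2 and Phf1. Capitals mark exact matches, on either strand, to any of 8 short motifs: the GC box, which reads GGGCGG, the CCAAT box, the core bound by ETS factors, which reads CCGGAA, the core bound by NRF1, which reads GCATGCGC, the cyclic AMP response element, which reads TGACGTCA, the E2F motif in either of the forms TTTGGCGC and TTTCGCGC, and the TATA box, which reads TATAAA. Ezh2 lies at chr6:47594981-47595280 on the minus strand, Ezh1 at chr11:101226414-101226713 on the minus strand, Suz12 at chr11:79992856-79993155 on the plus strand, Mtf2 at chr5:108065424-108065723 on the plus strand and Phf1 at chr17:26932877-26933176 on the plus strand.
Ezh2: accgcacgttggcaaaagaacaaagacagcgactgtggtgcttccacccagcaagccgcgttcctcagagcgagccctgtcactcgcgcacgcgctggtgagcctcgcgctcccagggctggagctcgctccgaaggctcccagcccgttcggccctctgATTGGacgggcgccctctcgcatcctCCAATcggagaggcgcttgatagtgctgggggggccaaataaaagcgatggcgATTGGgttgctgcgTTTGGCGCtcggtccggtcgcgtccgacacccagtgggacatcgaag
Ezh1: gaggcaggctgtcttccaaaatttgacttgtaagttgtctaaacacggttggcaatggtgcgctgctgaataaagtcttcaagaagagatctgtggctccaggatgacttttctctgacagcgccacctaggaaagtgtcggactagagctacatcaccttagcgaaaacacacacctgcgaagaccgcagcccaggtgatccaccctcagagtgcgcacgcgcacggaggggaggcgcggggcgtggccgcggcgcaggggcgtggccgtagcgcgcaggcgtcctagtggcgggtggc
Suz12: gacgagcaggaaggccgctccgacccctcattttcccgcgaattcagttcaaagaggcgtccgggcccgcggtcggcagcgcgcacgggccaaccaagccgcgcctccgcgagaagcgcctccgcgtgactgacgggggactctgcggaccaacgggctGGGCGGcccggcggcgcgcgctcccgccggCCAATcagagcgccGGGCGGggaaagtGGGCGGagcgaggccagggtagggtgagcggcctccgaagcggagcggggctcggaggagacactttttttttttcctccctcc
Mtf2: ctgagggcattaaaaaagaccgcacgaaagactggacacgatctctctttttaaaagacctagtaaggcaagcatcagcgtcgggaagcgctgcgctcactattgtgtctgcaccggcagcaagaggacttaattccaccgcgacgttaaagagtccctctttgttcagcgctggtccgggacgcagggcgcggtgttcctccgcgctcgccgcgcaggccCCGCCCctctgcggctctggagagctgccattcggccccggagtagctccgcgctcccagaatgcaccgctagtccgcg
Phf1: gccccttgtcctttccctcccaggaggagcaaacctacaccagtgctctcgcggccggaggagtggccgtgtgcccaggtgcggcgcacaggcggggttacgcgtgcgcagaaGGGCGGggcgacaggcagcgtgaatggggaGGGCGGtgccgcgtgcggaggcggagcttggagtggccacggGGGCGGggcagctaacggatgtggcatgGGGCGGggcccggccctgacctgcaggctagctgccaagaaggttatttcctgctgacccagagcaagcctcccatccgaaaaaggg

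The Ezh2 promoter held 3 CCAAT boxes, which start 90, 64 and 11 bases before the start, and 1 E2F match that starts at base 4 of the transcript. It was the only one of the 10 promoters with either E2F motif, and 0.813% of all 32841 promoters in the table had one. The Ezh1 promoter matched none of the 8 motifs. Suz12 had 3 GC boxes and 1 CCAAT box within 91 bases upstream of its start, Phf1 had 4 GC boxes, and Mtf2 had 1 GC box. Among the members, GC boxes were found in 6 (Suz12, Rbbp4, Jarid2, Mtf2, Phf1 and Phf19), beside 35.7% of all promoters, and CCAAT boxes in 5 (Ezh2, Eed, Suz12, Rbbp4 and Jarid2), beside 37.4%. The 3 GC boxes of Phf19 nearest one another overlapped, and no other matches did. No promoter of the 10 held the ETS core, the NRF1 core, the cyclic AMP response element or the TATA box, which 14.9%, 2.71%, 1.79% and 13.6% of all promoters held. These are matches of letters in a window and do not show binding. Only 1 window per gene was searched for the members, while the percentages cover every promoter in the table. For Aebp2 it was the window at the most upstream start, 0% of which was under a peak, and its other RefSeq windows were not searched.

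CpG dinucleotides, given as the number observed over the number expected from the C and G content, ranged from 0.698 in Phf1 to 1.12 in Rbbp4 in 9 of the 10 promoters, all above the median of 0.384 over all promoters. Aebp2 was the exception at 0.232. Its most upstream start is 1 of 3 in the RefSeq table, and the start 2246 bp further into the gene had a ratio of 0.774. The H3K27ac peak of Aebp2 covered 55.0%, 72.7% and 62.0% of that CpG-rich window in replicates 1, 2 and 3, and 0% of the windows at the other starts in each replicate.

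All 10 genes had an H3K27ac peak at a TSS in all 3 libraries, where 43.4% of all protein-coding genes did. A TSS peak is one that overlaps 2.5 kb either side of the start of any protein-coding transcript of the gene. Each library had about the same number of genes with such a peak, 10000, 10252 and 10231. Presence therefore did not separate the core from the accessory subunits, and the genes were compared by how far the peak rose over background and how much DNA it covered. The value called fold is the enrichment at the summit over local background as deposited by the authors, taken from the highest TSS peak of a gene, and width is the sum of the base pairs that its TSS peaks cover.

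The libraries were alike in depth. It was 18.0 to 19.3 M reads, as recovered from the peak lists, the lists held 23410 to 25963 peaks, and the median fold of all genes with a TSS peak was 9.07, 9.26 and 10.7 in replicates 1, 2 and 3. Of 6 genes of progenitors (Kit, Gata2, Myb, Runx1, Spi1 and Cebpa), 6 had a TSS peak in all 3 libraries, with folds of 4.75 to 9.90. Of 4 lymphoid, 4 mature myeloid and 4 non-haematopoietic markers none had a TSS peak in all 3 libraries; 1 lymphoid gene had one in 1 library, at a fold of 3.00, and 1 mature myeloid gene had one in 1 library, at 5.29.

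**Figure D1:**
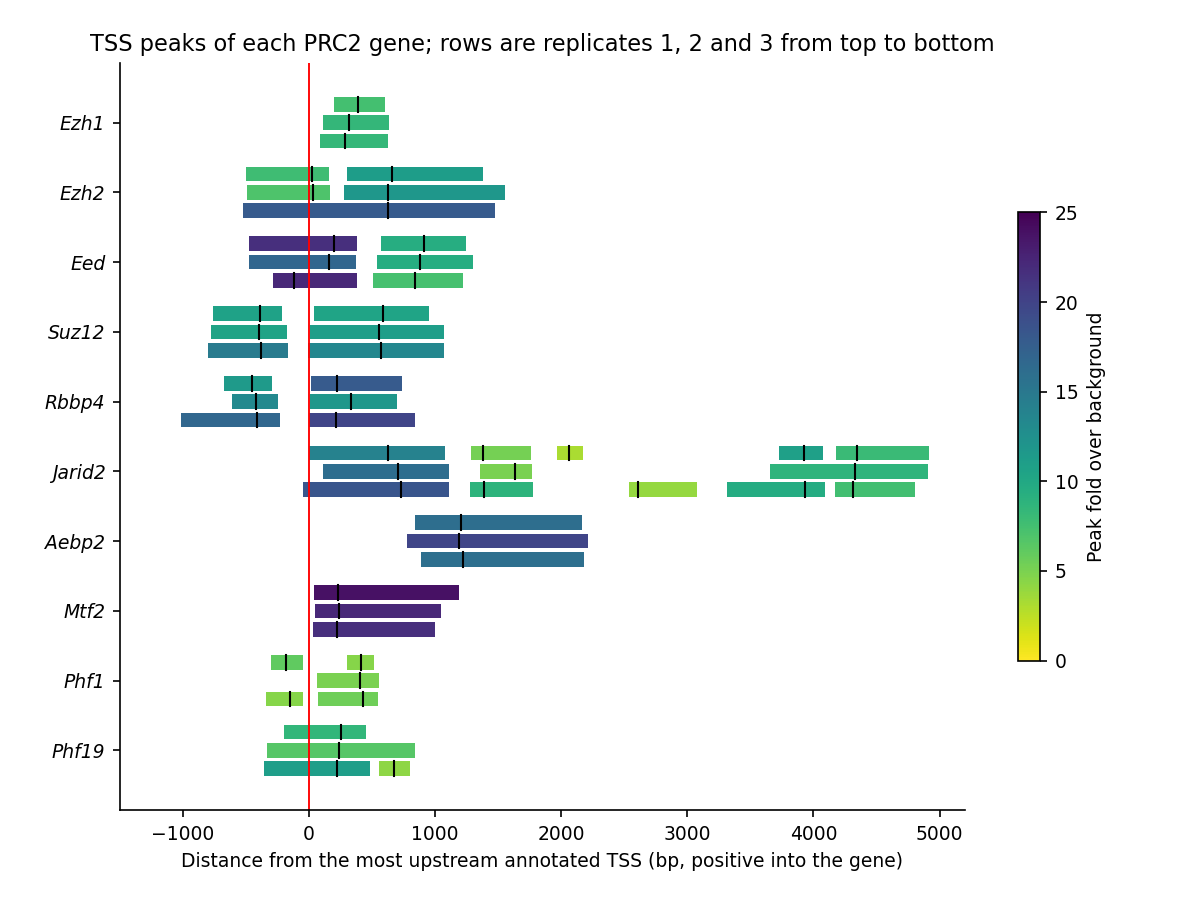
TSS peaks of the 10 PRC2 genes, drawn as bars against the distance in bp from the most upstream annotated start (red line), with replicates 1, 2 and 3 from top to bottom for each gene, the colour giving the fold of the peak and the black tick its highest summit. Ezh1 has 1 short peak downstream of its start, Suz12 and Rbbp4 have peaks on either side of it, and the peaks of Jarid2 reach 4914 bp into the gene.

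Ezh2 and Ezh1 encode the alternative catalytic subunits, with EZH2 the form that predominates in dividing cells. The fold at Ezh2 was 11.2, 11.8 and 17.9 in replicates 1, 2 and 3. At Ezh1 it was 7.47, 8.49 and 8.34. By the tallest peak, every library had the higher value at Ezh2 and the values of the 2 genes did not overlap. The ratio of Ezh2 to Ezh1 was 1.50, 1.38 and 2.15, a mean of 1.68 ± 0.412 (SD, n = 3). A two-sided exact permutation test that flips the signs of the log2 ratios of the 3 libraries gave p = 0.25, the smallest value that 3 libraries allow, and 0.30 after Benjamini-Hochberg adjustment over 6 tests. The folds rest on 53, 46 and 72 fragments at the Ezh2 summit and 23, 27 and 27 at the Ezh1 summit. From counting error alone, the 95% exact Poisson intervals of the 2 folds did not overlap in replicate 3 (14.1 to 22.5 for Ezh2, against an interval that began at 5.60 and ended below 14.1 for Ezh1) and did in replicate 1 (8.46 to 14.6 against 4.85 to 11.1) and replicate 2 (8.67 to 15.6 against 5.70 to 12.2).

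The widths of the catalytic pair lay further apart than the folds. Ezh2 was covered over 1742, 1934 and 1997 bp. Ezh1 was covered over 406, 519 and 532 bp. The ratio within a library was 4.29, 3.73 and 3.75, a mean of 3.92 ± 0.318 (SD, n = 3; exact permutation p = 0.25, adjusted 0.30), a difference larger than the spread between libraries in a test that could not go lower. With the widest single peak of each gene, the log2 ratio was 1.54 ± 0.32, where the summed width gave 1.97 ± 0.11. Among all genes with a TSS peak, Ezh2 stood between the 87.9th and 89.9th percentile of width, and Ezh1 between the 14.7th and 20.6th. At Ezh2 a peak lay over the most upstream annotated start, reaching from 501 bp upstream to 164 bp downstream at its widest. A taller peak ran from 279 to 1553 bp downstream at its widest. The peaks were separate in replicates 1 and 2 and joined in replicate 3. The RefSeq start of the printed window lay 311 bp into the gene, under the taller peak, which began 300 and 279 bp downstream in replicates 1 and 2. The stretch without a peak in these replicates thus lay just upstream of the RefSeq start. The promoter window of Ezh2 printed above was under a peak over 53.0%, 62.0% and 100% of its length. That of Ezh1 was at 0% in each library, since its single peak began 90 to 194 bp downstream of the start and ended by 631 bp.

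Eed, which encodes the reader of the methyl mark, had the highest fold of the core genes by its tallest peak, at 21.6, 16.9 and 22.3. By the mean fold over all TSS peaks of a gene it fell from 20.3 to 14.5, and Rbbp4 was highest of the core genes at 15.2. Its TSS peaks covered 1535, 1610 and 1372 bp. The peak with this fold crossed the start in every library, and its promoter window was 100% covered in each. A second, lower peak with folds of 9.40, 9.51 and 7.37 lay 508 to 1299 bp downstream. The start of E230029C05Rik, a processed transcript, is 260 bp from that of Eed and lay under the same peak in all 3 libraries, so the acetylation there cannot be assigned to Eed alone.

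Suz12, the gene of the scaffold subunit, had folds of 10.6, 11.1 and 14.7 and widths of 1459, 1668 and 1719 bp. Its signal was in 2 peaks of like height on either side of the start. In replicate 1 the upstream peak had a fold of 10.6 and the downstream peak 10.4, and in replicate 3 they had 14.7 and 13.5. The stretch without a peak between them was 253 bp in replicate 1 and 186 bp in replicate 2, and in replicate 3 the downstream peak reached 10 bp past the start. The GC boxes and the CCAAT box shown in capitals for Suz12 lie in the window of which 15.7%, 38.0% and 46.7% was under a peak. The matches themselves lay between the upstream and the downstream peak in each library, so none of them was under a peak.

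Rbbp4 showed the same arrangement. Its folds were 17.9, 13.3 and 19.9 and its widths 1107, 1053 and 1633 bp, with an uncovered stretch of 309 bp in replicate 1 and 254 bp in replicate 2 between the peaks either side of the start. The protein-coding gene Zbtb8os starts 325 bp away and its TSS was under the upstream peak in each library, so the peaks serve to describe the shared promoter of both genes. Replicate 3 was the widest at Rbbp4 by more than 500 bp, and the coefficient of variation of its width, 25.3%, was the largest of the core genes.

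Jarid2, which encodes a PRC2.2 subunit related to the histone demethylases, had the largest summed width of all members. Its widths were 2849, 2670 and 3607 bp, between the 96.9th and 98.8th percentile of genes with a TSS peak. They were summed over 5, 3 and 5 peaks. The tallest of these peaks began at or near the most upstream start and had the gene's folds of 14.0, 16.1 and 18.4. A further group of peaks lay between 3318 and 4914 bp downstream, with folds of 7.60 to 10.9. Jarid2 has 8 annotated coding starts, the most of any member, and its mean width of 3042 ± 497 bp (SD, n = 3) fell to 1613 bp when peaks near its most upstream start alone were counted and to 1794 bp when the window was 1 kb. Its widest single peak averaged 1163 bp. In each of these settings Jarid2 was no longer the widest member, and Ezh2 was, at 1891 bp in the former settings and 1451 bp by its widest single peak.

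Aebp2, the gene of the other PRC2.2 subunit, a zinc finger protein, had 1 peak in each library. Its folds were 16.0, 19.8 and 15.9 and its widths 1319, 1436 and 1293 bp, with the smallest coefficient of variation of width among the members, 5.65%. The peak lay wholly downstream of the most upstream start, from 778 to 2213 bp at its widest, with the summit 1186 to 1217 bp from it. The nearest other start, of the unclassified transcript Gm44013, lay 1018 to 1129 bp from the edge of the peak.

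Mtf2, which encodes the Polycomb-like protein of PRC2.1, had the highest mean fold of the 10 genes, 22.6 ± 1.14 (SD, n = 3). It was 23.8, 22.3 and 21.6 in the libraries, and rested on 91, 88 and 109 fragments at the summit. The widths were near those of a typical gene with a TSS peak, at 1148, 1003 and 970 bp against medians of 886, 945 and 970 bp over all such genes. In each library 1 peak began 30 to 45 bp downstream of the start with its summit 219 to 233 bp into the gene. The window printed for Mtf2 was thus under a peak over 4.33%, 1.67% and 6.67% of its length. No peak was found over its other RefSeq start, 12491 bp into the gene.

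The other genes of Polycomb-like proteins had lower peaks. Phf19 had folds of 8.53, 6.62 and 11.1, and widths of 648, 1173 and 1081 bp. Phf1 had the lowest fold of the members in every library, 6.15, 5.00 and 5.50, on 17, 16 and 18 fragments, and widths of 467, 493 and 770 bp. The peak of Phf19 crossed the start in all 3 libraries, and the window at its start was covered over 99.3%, 100% and 100%. At Phf1 a peak upstream of the start was called in replicates 1 and 3 and not in replicate 2, where the downstream peak alone was called. With peaks of a −log10 q-value under 5 left out, the mean width of Phf1 was 407 bp instead of 577 bp. The start of Gm13448 (a processed transcript) lay 320 to 706 bp from the edge of the peak at Phf19, and that of a sense-overlapping transcript, AC144621.3, lay 955 to 999 bp from the peak at Phf1.

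**Figure D2:**
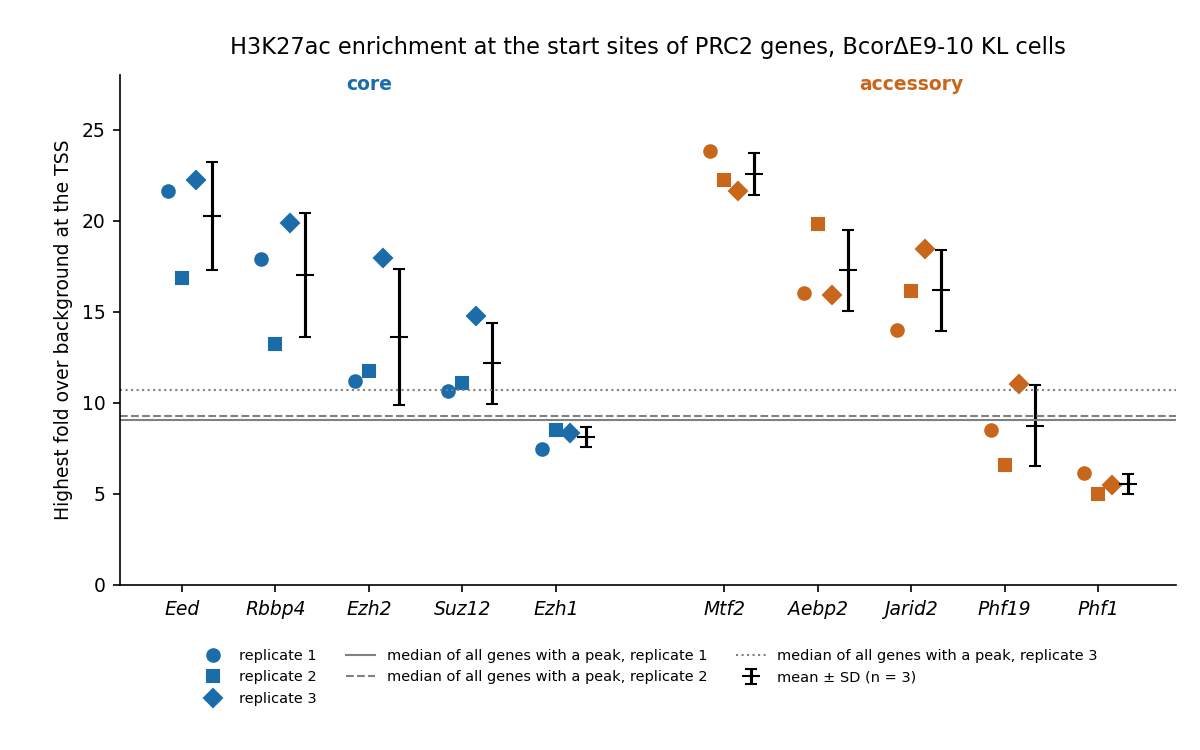
Highest fold over background at the TSS of each gene (vertical axis, a ratio within a library), with 1 symbol per library, the mean ± SD (n = 3) in black, and grey lines for the median of all genes with a TSS peak in each library. Mtf2 and Eed are highest, at means of 22.6 and 20.3, Ezh1 and Phf1 lie below the line of their own library in all 3 libraries, and the core genes, at 7.47 to 22.3, lie within the range of the accessory genes, 5.00 to 23.8.

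Ordered by mean fold, the members were Mtf2 at 22.6 ± 1.14, Eed at 20.3 ± 2.94, Aebp2 at 17.3 ± 2.23, Rbbp4 at 17.0 ± 3.41, Jarid2 at 16.2 ± 2.22, Ezh2 at 13.6 ± 3.73, Suz12 at 12.2 ± 2.25, Phf19 at 8.73 ± 2.23, Ezh1 at 8.10 ± 0.548 and Phf1 at 5.55 ± 0.574 (SD, n = 3 each). Core and accessory genes are interspersed in this order, with an accessory gene at each end of it. From Mtf2 down to Jarid2, and between Phf19 and Ezh1, neighbours changed places in at least 1 library and their mean differences were smaller than the SD of the difference. The gaps from Jarid2 to Ezh2 (2.54 ± 1.95), from Suz12 to Phf19 (3.43 ± 1.22) and from Ezh1 to Phf1 (2.55 ± 1.11) had the same sign in 3 of 3 libraries and exceeded their SD. Ezh2 was also above Suz12 in 3 of 3 libraries, by 1.47 ± 1.49, which is within the SD. The place of Jarid2 rested on its tallest peak, since by the mean fold over its TSS peaks it was 9.30 ± 0.915, below Ezh2 at 12.3 and Suz12 at 11.8. No pair of neighbours could go below p = 0.25 in the exact permutation test.

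Ordered by mean width, Jarid2 at 3042 ± 497 bp was followed by Ezh2 at 1891 ± 133 bp, Suz12 at 1615 ± 138 bp, Eed at 1506 ± 122 bp, Aebp2 at 1349 ± 76.2 bp, Rbbp4 at 1264 ± 320 bp, Mtf2 at 1040 ± 94.7 bp, Phf19 at 967 ± 280 bp, Phf1 at 577 ± 168 bp and Ezh1 at 486 ± 69.3 bp. Neighbours kept their order in 3 of 3 libraries between Jarid2 and Ezh2, Ezh2 and Suz12, Eed and Aebp2, and Phf19 and Phf1. In the other pairs of neighbours the order turned in at least 1 library. Genes with several peaks were lower by their widest single peak, Eed at 806 bp, Suz12 at 1020 bp and Rbbp4 at 753 bp. Height and width did not rank the genes alike, since Mtf2 led in fold and was seventh in width while Ezh2 was sixth in fold and second in width.

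**Figure D3:**
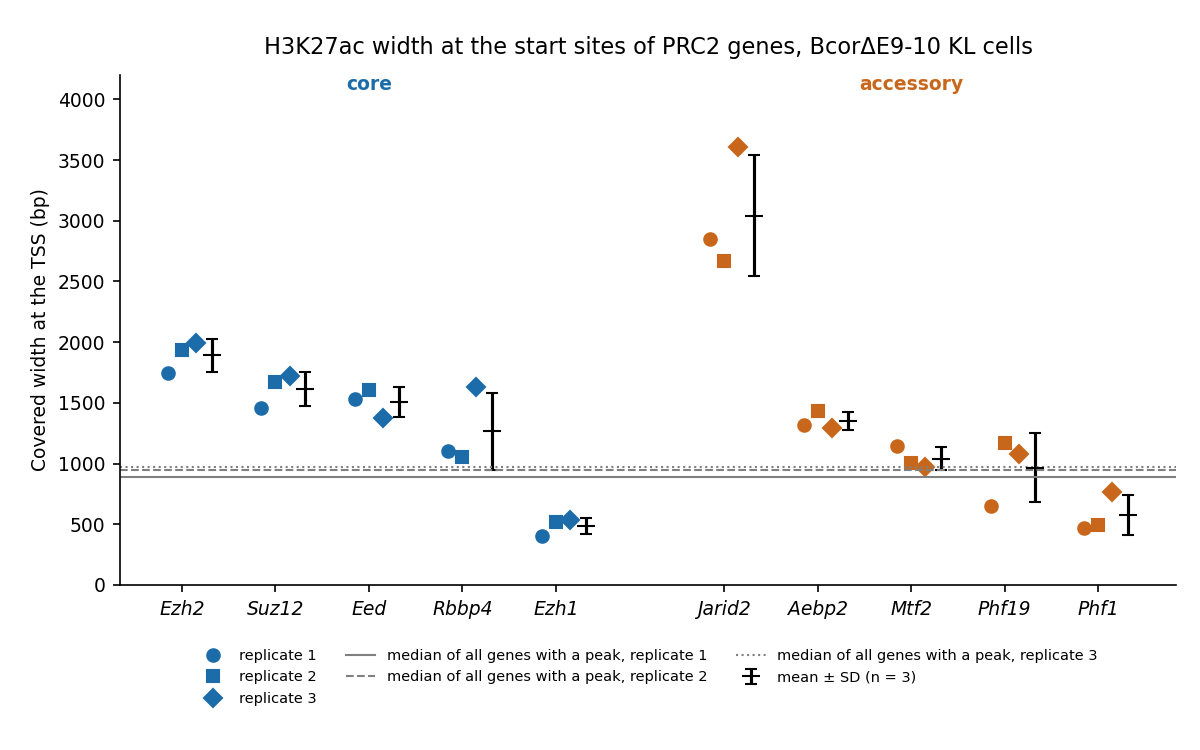
Base pairs covered by the TSS peaks of each gene (vertical axis, bp), with 1 symbol per library, the mean ± SD (n = 3) in black, and grey lines for the median of all genes with a TSS peak in each library. Jarid2 is widest in every library, at 2670 to 3607 bp, and Ezh1 narrowest in replicates 1 and 3.

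Set among all genes with a TSS peak, 7, 7 and 8 of the 10 members had a fold above the median in replicates 1, 2 and 3, and 7, 8 and 7 had a width above it. The mean percentile of fold ran from 17.9 for Phf1 to 93.5 for Mtf2, and that of width from 18.6 for Ezh1 to 97.9 for Jarid2. Ezh1 and Phf1 were below the median in both measures in all 3 libraries. Ezh2, Eed, Suz12, Rbbp4, Jarid2 and Aebp2 were above it in both measures in all 3. Phf19 lay near the middle, at percentiles of fold from 28.4 to 51.5 and of width from 32.8 to 63.5.

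**Figure D4:**
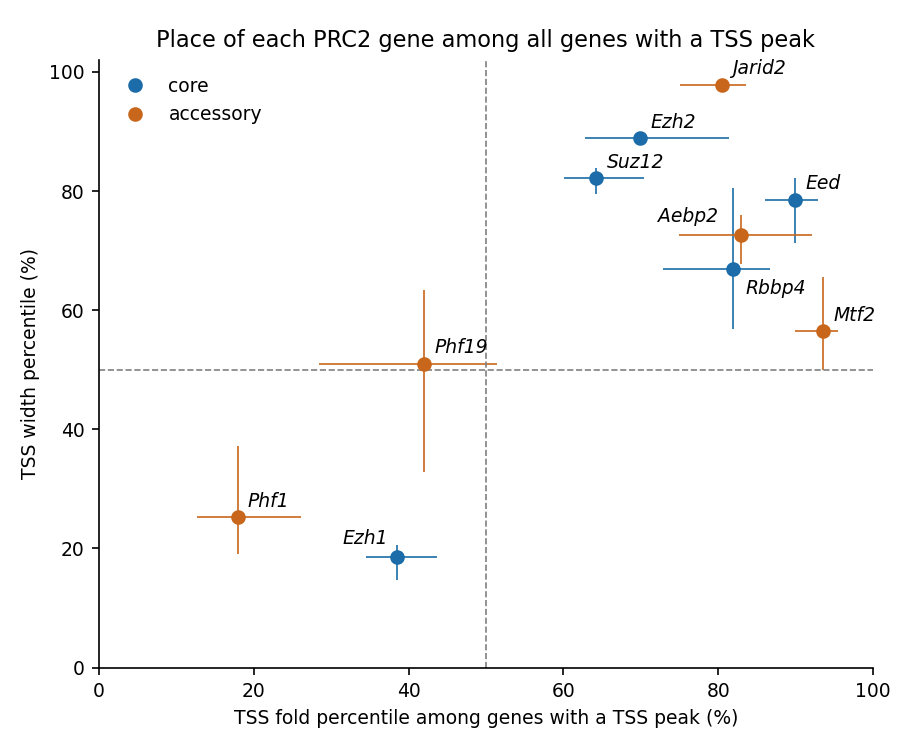
Place of each member among all genes with a TSS peak, as the percentile of its fold (horizontal axis, %) and of its covered width (vertical axis, %), with points at the mean of 3 libraries, bars from the lowest to the highest library and dashed lines at the median. Ezh1 and Phf1 lie in the lower left, Mtf2 combines a fold percentile of 93.5 with a width percentile of 56.4, and 6 genes lie wholly in the upper right.

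Core and accessory genes were compared as groups by the median of their members within each library. The median fold of the 5 core genes was 11.2, 11.8 and 17.9, and that of the 5 accessory genes 14.0, 16.1 and 15.9. Their ratio was 0.802, 0.729 and 1.13, below 1 in 2 libraries and above it in 1 (mean log2 ratio -0.20 ± 0.33, SD, n = 3; exact permutation p = 0.50, adjusted 0.50), so by this summary no difference in fold beyond the spread between libraries was found. The mean of the genes gave a log2 ratio of 0.0066 ± 0.19. The mean over all TSS peaks of a gene turned it to 0.34 ± 0.25, with the core higher in every library (exact permutation p = 0.25).

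The median width of the core genes was 1459, 1610 and 1633 bp, and that of the accessory genes 1148, 1173 and 1081 bp. The ratio was above 1 in 3 of 3 libraries, at 1.27, 1.37 and 1.51 (mean log2 ratio 0.47 ± 0.12; exact permutation p = 0.25, adjusted 0.30). This direction belonged to the median and to the summed width. With the mean of the genes in place of the median the log2 ratio was -0.043 ± 0.046. With the widest single peak of each gene it was -0.33 ± 0.14, with the core narrower in every library (exact permutation p = 0.25). Within each group the genes spanned a far wider range than the groups differed by, from 406 to 1997 bp in the core and from 467 to 3607 bp in the accessory genes. With Rbbp4 left out of the core the log2 ratios were -0.27 for fold and 0.46 for width.

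Among the accessory genes, those of PRC2.1 and PRC2.2 were compared by the mean of their members. The mean width of Mtf2, Phf1 and Phf19 was 754, 890 and 940 bp. That of Jarid2 and Aebp2 was 2084, 2053 and 2450 bp. The PRC2.1 genes were thus narrower in 3 of 3 libraries, at ratios of 0.362, 0.433 and 0.384 (mean log2 ratio -1.35 ± 0.13; exact permutation p = 0.25, adjusted 0.30). The widest member, Jarid2, carried much of this difference, and with peaks near the most upstream start alone the log2 ratio was -0.79. The fold differed by less, with ratios of 0.855, 0.628 and 0.741 (mean log2 ratio -0.44 ± 0.22; exact permutation p = 0.25, adjusted 0.30). By the mean fold over the TSS peaks the log2 ratio was -0.17 ± 0.23 (exact permutation p = 0.50), within its SD and not of the same sign in every library. Mtf2 had a higher fold than Jarid2 and Aebp2 in each library although it belongs to the group with the lower mean.

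**Figure D5:**
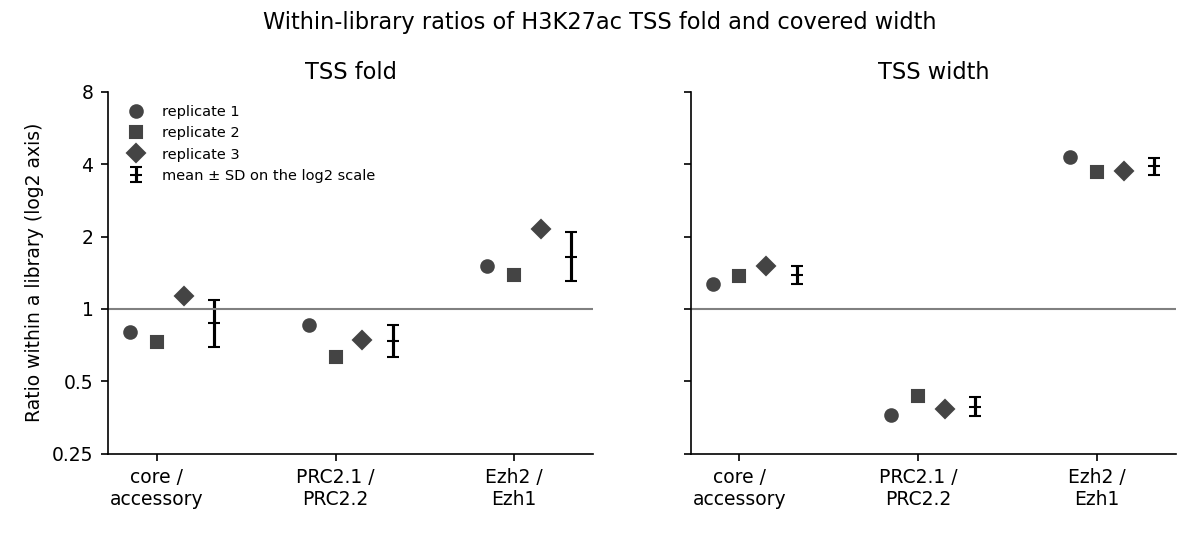
Ratios within each library of TSS fold (left) and covered width (right) on a log2 axis, for core over accessory genes (medians), PRC2.1 over PRC2.2 genes (means) and Ezh2 over Ezh1, with 1 symbol per library and the mean ± SD on the log2 scale (n = 3). The width ratio of Ezh2 to Ezh1 lies between 3.73 and 4.29, and the fold ratio of core to accessory genes lies on either side of 1.

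Peaks of the members away from start sites were counted as well. Peaks in a gene or within 10 kb of it, and over 2.5 kb from every annotated start of any gene, numbered 4, 3 and 3 in the 3 libraries. They were at Ezh2, Suz12, Jarid2 and Mtf2, that is at 4 of 10 members, beside 19.7% of all protein-coding genes with such a peak in at least 1 library. No such region was found in all 3 libraries at any member, beside 5.88% of all protein-coding genes, a share near which 10 genes may hold none. Merged over libraries they made 9 regions, 8 of them in 1 library. The remaining one lay in an intron of Jarid2 at chr13:44799699-44800125 (GRCm38), 70.3 kb from the most upstream start, with a fold of 3.89 in replicate 1 and 4.40 in replicate 3. It counts as shared by every library when replicate 2 is left out. Jarid2 held 6 of the 9 regions, all intronic, and is the longest of the members at 192 kb, against a median of 38.2 kb. The folds of the 9 regions were between 3.00 and 4.89, below the TSS fold of every member in the same library. Ezh1, Eed, Rbbp4, Aebp2, Phf1 and Phf19 had none.

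Partners of PRC2 and enzymes that remove its mark were looked at in the same way. Of 8 such genes, 6 had a TSS peak in all 3 libraries, and 5 did with a window of 1 kb or with peaks of a −log10 q-value under 5 left out. Rbbp7, the paralogue of Rbbp4, had a mean fold of 13.2 ± 4.15 and a width of 1698 ± 179 bp (SD, n = 3). Lcor and Lcorl, whose loci also encode PALI proteins that join PRC2.1, had folds of 13.4 ± 0.759 and 18.4 ± 1.88. The H3K27 demethylase genes Kdm6a and Kdm6b had folds of 16.1 ± 1.54 and 19.5 ± 2.92, and Kdm6b was wider than every member but Jarid2, at 2554 ± 257 bp. Its nearest peak downstream of the start began 1497 to 1514 bp into the gene, so its peaks were not over the start itself. In replicates 1 and 3 its width also counts a low upstream peak, of 207 and 274 bp. No peak of Kdm6b lay within 1 kb of its start, so it was the partner lost with that window and its width rank holds for the 2.5 kb window only. Epop, which encodes a PRC2.1 partner that binds elongin, was the weakest, with folds of 4.92, 3.25 and 4.67, lower than Phf1 in each library, and a −log10 q-value of 2.36 in replicate 2. Skida1 and Ezhip had no TSS peak in any of the 3 libraries. No listed summit rested on fewer than 8 fragments, so weaker acetylation at these genes would not be listed.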

How the data were processed

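H3K27ac ChIP-seq (Abcam antibody) was measured in 3 BcorΔE9-10 KL libraries. Single-end reads had been mapped by the authors to GRCm38 (bowtie2), and after removal of duplicates each library had its own MACS2 2.1.1 peak call. The control and settings are not given in the sources used here. The deposited lists give, per summit, a fold (a ratio over local background, with no scaling across libraries), the −log10 p-value, the −log10 q-value and a score. The deposited score was not used. The deposited summit position was used to place summits.

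Rows repeating an interval were 1 peak with the highest fold; only chromosomes 1 to 19, X and Y entered. GENCODE M21 supplied the gene models, and coordinates are GRCm38, counted from 1. Distances are from the most upstream annotated start of a gene. Fragments at a summit were solved from fold and p-value (100%, 100% and 98.9% of rows solved), a step tested on simulated data; depth follows from the background, if fragments are 200 bp long and MACS2's default mouse genome size was set. Intervals cover counting error only, since duplicates were removed without molecular identifiers.

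Ratios within libraries were tested by an exact sign-flip permutation test over 3 libraries (two-sided; smallest p 0.25), with Benjamini-Hochberg adjustment over 6 tests. The mice behind the libraries are not identified in the labels, so the spread may be in part technical. Tools were Python 3.11.15, numpy 2.4.6, scipy 1.17.1 and matplotlib 3.10.9. All 10 members are named, with the partners that had a TSS peak, the gene starting closest to a member's TSS peak within 2.5 kb, and the distal region found in most libraries; Skida1 and Ezhip are named as the partners without a peak. Members, partners, markers and motifs were chosen with earlier results of these data known. Alternatives changed the TSS window, the peaks kept, the summary of a gene or group, the flank and the libraries.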

Additional observations from a re-analysis of the deposited data

How the results depend on the processing

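The core against accessory comparison depended on the summary used. Its log2 ratio of fold, -0.20, turned to 0.0066 with the mean of the genes and 0.34 with the mean fold over TSS peaks. Its log2 ratio of width, 0.47, turned to -0.043 with the mean of the genes and -0.33 with the widest single peak. The cause was not tested. The Ezh2 to Ezh1 and PRC2.1 to PRC2.2 ratios kept the direction of their mean under all alternatives run, but both shrank under some. With the mean fold over TSS peaks, the PRC2.1 to PRC2.2 fold went from -0.44 to -0.17 ± 0.23 (log2). The Ezh2 to Ezh1 fold went from 0.72 ± 0.34 to 0.53 ± 0.51. With the widest single peak, the Ezh2 to Ezh1 width went from 1.97 to 1.54 ± 0.32 (log2). That of PRC2.1 to PRC2.2 went from -1.35 to -0.70 ± 0.11. Leaving out 1 library gave 0.53 to 0.85 for the fold and 1.90 to 2.00 for the width of Ezh2 over Ezh1 (log2), and -0.39 to -0.074 for the core to accessory fold. The mean number of distal peaks per library, 3.33, was 0.667 with a −log10 q of at least 5 and 5.33 with a flank of 25 kb, and the number of distal regions in every library was 0 to 1 when 1 library was left out, the 1 without replicate 2. No paired analysis was possible because all 3 libraries belong to a single group, and each ratio is already formed inside a library. With 3 libraries no test could reach 0.05, and peaks under 8 fragments at the summit were not listed.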
